A study of Mus musculus with 18 samples.

Results

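Livers of mice fed a high-fat diet (HF) were compared with livers of mice fed chow (CD), both taken at ZT6, the middle of the light and rest phase (ZT counts hours from lights on). The comparison uses the 6 arrays whose labels give ZT6 and either the high-fat diet with saline or the control diet, 3 HF and 3 CD, out of 18 arrays in the series. All animals were C57BL/6J males under 12-hour light and dark cycles with food at will, and each array holds the liver RNA of 1 mouse; their age at harvest is not given in the labels. CD mice ate normal chow throughout. HF mice ate a diet with 53% of its energy as fat for 8 weeks and then received saline into the peritoneum at ZT11 every day for 3 weeks on the same diet. The labels give no injection for CD mice, while the study's methods describe vehicle for all mice without NAD+, so diet and injection cannot be told apart from the labels alone. HFN mice, used below only for values set side by side, had the same diet and received 50 mg/kg NAD+ at ZT11 in place of saline. The other 12 arrays are the HFN livers at ZT6 and the CD, HF and HFN livers at ZT18, the middle of the dark and active phase.

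The liver takes up fatty acids from the diet and from adipose tissue and either burns them or stores and exports them as triglyceride. PPARA, a nuclear receptor that binds fatty acids, drives genes for oxidation in mitochondria, peroxisomes and the endoplasmic reticulum, where cytochromes of the Cyp4a family hydroxylate the last carbon of the chain. SREBP1 and ChREBP drive the genes that make fatty acids from sugar, and the liver clock times both programmes over the day. Clariom D arrays carry probes for coding and noncoding transcripts, and a transcript cluster is the set of probes for 1 transcribed region. Values below are deposited log2 signals, so a difference of 1 is a doubling; levels of different genes are not set against each other.

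Each of 65956 transcript clusters was tested with limma, with 1 mean for each of the 6 groups over all 18 arrays. Changed clusters are those with an adjusted p under 0.05 (Benjamini-Hochberg over all clusters) and a higher group mean more than 25% above the lower one on the linear scale. By this rule 29 clusters changed at ZT6, which is 0.044% of those tested. Of these, 23 rose (0.0349%) and 6 fell (0.0091%), and 23 of the 29 carry a gene symbol. The calls rest on a spread estimated over all 18 arrays: limma fitted on the 6 compared arrays alone gave 0, with adjusted p of 0.0766 to 0.581 for the 29 and 2638 clusters at an unadjusted p under 0.05. At an unadjusted p under 0.05 with the same fold minimum, 1217 clusters were higher in HF livers (1.85%) and 999 lower (1.51%). Among clusters brighter than the median cluster these shares were 3.06% and 2.61%, and 28 of the 29 changed clusters are among these. The groups of 3 did not overlap in 10.9% of all clusters, nor in any of the 29, which the choice of the 29 nearly fixes. An exact permutation test on 3 against 3 cannot give a p under 0.1, so single genes were not tested that way.

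All 18 arrays had medians between 4.29 and 4.42, and the values reach a ceiling of 19.93. Signals of the negative-control probe sets had a median of 4.65, 4.60 and 4.95 on CD replicates 1, 2 and 3 and of 4.76, 4.93 and 5.01 on HF replicates 1, 2 and 3, so 1 CD array and 2 HF arrays stood higher than the rest. With that signal added to the model 18 of the 29 remained past the test, and 34 passed in all. The named calls lost were Acaa1b, Crat, Acaca, Fads1, Elovl2, Decr2, Neurl2, Gm9097, Ddc and Aox3, with adjusted p of 0.0594 to 0.127. The hepatocyte markers Alb, Apoa2 and Ahsg sat at the ceiling on every array. On the 6 arrays the defining markers of cholangiocytes (Krt19 and Epcam), T and B cells (Cd3e and Cd79a) and adipocytes (Adipoq and Lep) lay between 3.52 and 4.59, below the negative-control medians of all 6.

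Among the changed genes, Cyp4a14, Vnn1, Aldh3a2, Acaa1b, Crat, Decr2 and Plin2, which PPARA or fatty acid load is known to raise in mouse liver, rose between 1.98-fold and 98.2-fold. Fads1, Fads2, Elovl2, Acaca and Pnpla3, which make or remodel fatty acids, rose between 2.03-fold and 6.16-fold. Apoa4, Fabp2, Cyp17a1 and the dim Fgf21 rose as well, and Ces1g, Aox3 and Ddc fell. Of the 29 calls, 4 were kept when each of the 6 arrays was left out in turn: Aldh3a2, Pnpla3, Fgf21 and a cluster without a symbol, TC0900002219. Without HF replicate 3 only 5 of the 29 remained past the test, and without CD replicate 1 only 6. Leaving out CD replicate 2, CD replicate 3, HF replicate 1 or HF replicate 2 kept 16, 20, 21 and 15. Ces1g was lost in all 6 of these fits, Cyp17a1, Acaa1b, Crat, Acaca, Fads1, Elovl2, Ddc and Aox3 in 5, and Decr2, Slc23a2, Neurl2 and Gm9097 in 4.

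**Figure D1:**
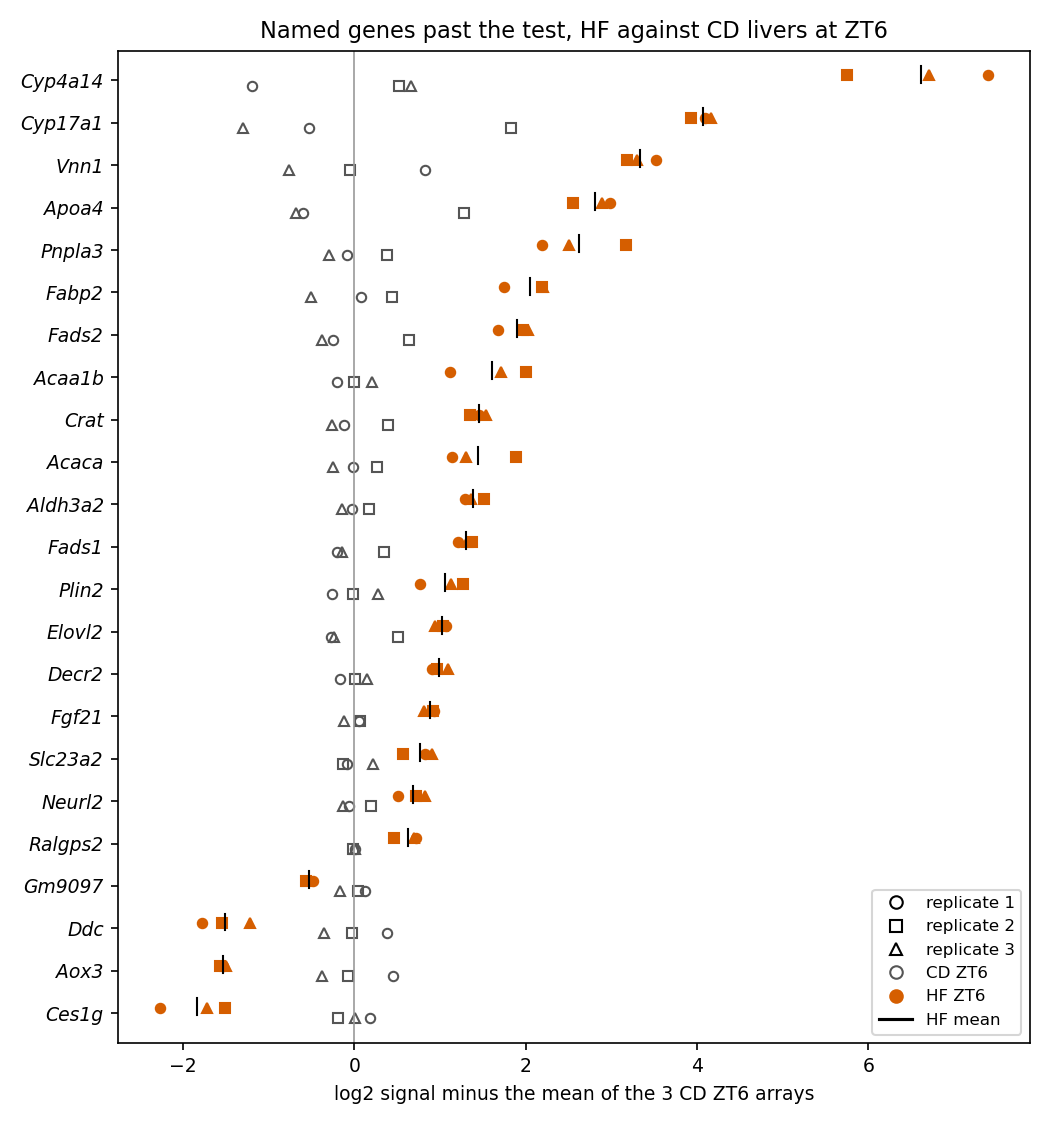
Log2 signal of the 23 named changed clusters on the 3 CD ZT6 arrays (open grey) and the 3 HF ZT6 arrays (orange), each minus the gene's CD mean; marker shape gives the replicate and the black bar the HF mean. No gene has overlapping groups, and the distances run from 6.62 for Cyp4a14 to -1.83 for Ces1g.

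The promoters of 4 changed genes are shown first because they hold the E-box CACGTG, the sequence that CLOCK and BMAL1, USF and ChREBP-related factors can bind. RefSeq promoters (build GRCm38.p6), each 250 bases before to 50 after a gene start, were matched by symbol for 17 of the 23 named changed genes. Both strands were searched, and the motif reads the same on each. It occurred in 4 of the 17 genes, against 8.09% of the 27025 genes with a promoter and 7.15% of all 32851 promoters. Capitals mark the motif, and each window runs on the gene's own strand, which is the minus strand for all 4.
Fgf21, chr7:45615508-45615567: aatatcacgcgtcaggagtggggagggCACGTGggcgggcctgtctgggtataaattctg
Aldh3a2, chr11:61267187-61267243: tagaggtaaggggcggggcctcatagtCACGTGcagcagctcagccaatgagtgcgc
Plin2, chr4:86670058-86670090: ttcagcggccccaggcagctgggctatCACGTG
Neurl2, chr2:164833734-164833810: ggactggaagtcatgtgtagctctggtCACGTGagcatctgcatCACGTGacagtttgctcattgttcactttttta
In Fgf21 the motif starts 50 bases before the gene start, in Aldh3a2 30 and in Plin2 4, and Neurl2 holds a pair of motifs. The PPARA half-site repeat AGGNCANAGGNCA was found in none of the 17 and in 0.381% of all promoters, and the sterol element TCACNCCAC in Slc23a2 alone and in 1.24% of all. Over genes with a promoter the shares were 0.451% and 1.44%. At such a share most sets of 17 genes would hold no half-site repeat, so its absence says nothing about PPARA. Cyp4a14, Vnn1 and Crat were among the named genes with no promoter to search. These matches describe letters in a short window and were not tested as binding sites.

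Cyp4a14, which hydroxylates the omega carbon of fatty acids, had signals of 9.70, 11.42 and 11.56 in the CD livers and 18.29, 16.63 and 17.60 in the HF livers. Every HF array stood more than 5 log2 units above every CD array. The gene rose by 6.62 ± 0.85 (SE), 98.2-fold, with an adjusted p of 0.0107, the largest fold among the calls. Leaving out HF replicate 3 raised that p to 0.0743. Each SE in the text and figures is that of limma for 3 arrays against 3, with the spread estimated over all 18 arrays. It is therefore not the scatter of the compared arrays alone. Cyp4a31 and Cyp4a32, close relatives on the same chromosome, had differences of 1.98 ± 0.36 and 2.08 ± 0.36 with adjusted p of 0.093 and 0.0725 and did not pass. The cluster shared by Cyp4a10 and Cyp4a31 differed by 2.16 ± 0.44 (adjusted p 0.14). Cyp4a12a and Cyp4a12b, the male-type members of the family, differed by -0.22 and -0.25. Probes of such close paralogs may read more than 1 of them, so the values within the family are not fully separate. Of 8 genes of the omega-hydroxylation list that could be measured, 1 rose and 3 were higher at the unadjusted rule, with 4 above 0 and a median of -0.06.

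Vnn1, the pantetheinase that breaks down coenzyme A precursors, gave 9.89, 9.01 and 8.30 in CD and 12.59, 12.25 and 12.37 in HF livers. The HF values lay within 0.4 of each other and far above the CD values. Vnn1 rose by 3.33 ± 0.40, 10.1-fold, with an adjusted p of 0.00905. It belongs to a list of 16 acyl-CoA thioesterases and enzymes of coenzyme A turnover, of which 1 rose, 7 were higher at the unadjusted rule and none lower, with a median difference of 0.31. Acot1, Acot2, Acot3 and Acot4, which release fatty acids from coenzyme A, differed by 1.63, 1.86, 2.23 and 1.27 with groups that did not overlap, and none passed the test (lowest adjusted p 0.17 for Acot4). The Acot genes lie in a cluster of near-copies, so their values may share signal.

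Aldh3a2, the fatty aldehyde dehydrogenase that follows omega hydroxylation, had 14.34, 14.55 and 14.23 in CD and 15.67, 15.89 and 15.74 in HF livers. Each group spread over little of the gap between them, which was more than 1. Its rise of 1.39 ± 0.14, 2.61-fold, had an adjusted p of 0.00248 and stayed under 0.05 with any array left out, 0.024 at most. Fgf21, the hormone the liver secretes under fatty acid load and fasting, was dim at 4.07, 4.08 and 3.89 in CD and 4.95, 4.94 and 4.82 in HF livers. The CD values lay below the negative-control median of their arrays, as did HF replicate 3, while HF replicate 2 was level with its own and HF replicate 1 above. The difference of 0.89 ± 0.11 had an adjusted p of 0.00905, and 0.048 at most with an array left out. No fold is given for signals this close to background.

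Of the genes listed here as peroxisomal 3 rose. The study counts Acaa1b and Crat with mitochondrial oxidation, and they are not in the mitochondrial list below. Acaa1b, a peroxisomal thiolase, was at 14.32, 14.52 and 14.74 in CD and 15.64, 16.52 and 16.23 in HF livers and rose by 1.61 ± 0.26 (adjusted p 0.0484). Crat, which swaps acetyl groups between carnitine and coenzyme A, was at 7.79, 8.30 and 7.65 against 9.37, 9.26 and 9.45 and rose by 1.45 ± 0.23 (adjusted p 0.0413). Decr2, which reduces dienoyl-CoA in peroxisomes, was at 14.16, 14.33 and 14.47 against 15.23, 15.28 and 15.41 and rose by 0.99 ± 0.14 (adjusted p 0.0223). In all 3 genes each HF array exceeded each CD array, and the calls of Acaa1b and Crat were lost when any of 5 arrays was left out. Of 17 peroxisomal genes measured, 3 rose, 12 were higher at the unadjusted rule and none lower, with a median of 0.57 against 0.009 for all clusters. Abcd2, a transporter of very long chains into peroxisomes, had the largest difference of the list, from 7.66, 8.13 and 6.59 to 11.66, 9.93 and 10.69, or 3.30 ± 0.62 with an adjusted p of 0.093. Ehhadh, the bifunctional enzyme of the pathway, differed by 1.09 ± 0.23 (adjusted p 0.18), and Pex11a, which divides peroxisomes, by 1.20 ± 0.27 (adjusted p 0.25).

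Mitochondrial oxidation showed smaller differences. All 17 genes measured were above 0, 9 were higher at the unadjusted rule and none passed the test, with a median of 0.44. Bdh1, the ketone body dehydrogenase, was nearest with 9.65, 9.80 and 9.98 in CD and 10.43, 10.43 and 10.58 in HF livers, a difference of 0.67 ± 0.13 (adjusted p 0.0999). Cpt1a, the gate for entry of fatty acids into mitochondria, differed by 1.20 ± 0.29 with CD values that spread from 13.70 to 15.09 (adjusted p 0.34). The subunits of the respiratory chain differed far less, with a median of 0.06 over 26 genes, of which none met even the unadjusted rule. Over 16 genes known as PPARA targets the median was 0.75, with 3 risen, 9 higher at the unadjusted rule and none lower. The receptor gene Ppara itself was at 11.94, 12.29 and 12.96 against 12.73, 13.50 and 13.16, groups that overlapped, with a difference of 0.73 ± 0.24 (adjusted p 0.56).

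De novo lipogenesis had the highest median of the lists over the 6 arrays, 1.35 over 16 genes, all above 0, but not within the arrays of low negative-control signal, as given below. Of these, 2 rose, 12 were higher at the unadjusted rule and none lower. Pnpla3, a droplet protein that SREBP1 controls, gave 5.23, 5.70 and 5.03 in CD and 7.51, 8.50 and 7.83 in HF livers. Its value on CD replicate 3 lay just above the negative-control median of that array, 4.95. No CD array came near an HF array, and Pnpla3 rose by 2.62 ± 0.28, 6.16-fold, with an adjusted p of 0.00422 and of 0.0313 at most with an array left out. Acaca, the cytosolic acetyl-CoA carboxylase that commits carbon to fatty acids, was at 11.06, 11.34 and 10.83 against 12.21, 12.96 and 12.38 and rose by 1.44 ± 0.23 (adjusted p 0.0466). Leaving out any of 5 arrays ended that call. Acacb, the mitochondrial form whose product blocks Cpt1a, went from 8.03, 8.86 and 8.16 to 9.94, 11.34 and 11.17, a difference of 2.46 ± 0.41 that missed the test (adjusted p 0.0548). Fasn, the synthase, was at 13.09, 13.75 and 12.50 against 14.16, 16.40 and 15.56, or 2.26 ± 0.50 (adjusted p 0.23). Scd1, the main delta-9 desaturase, read the same on every array and could not be compared.

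HF replicate 1 stood lowest of the HF livers in 14 of the 16 genes, and CD replicate 3 lowest of the CD livers in 10. Between HF replicate 1 and the mean of CD replicates 1 and 2 the median difference over the 16 genes was 0.47, below the PPARA targets (0.64), the Kupffer markers (0.54) and the peroxisomal genes (0.48), and between the mean of HF replicates 2 and 3 and CD replicate 3 it was 2.05. Thrsp, a thyroid- and sugar-responsive gene of lipogenesis, differed by -0.46 in the first of these and by 3.81 in the second. With arrays left out in turn the median of the 16 genes over all remaining arrays lay between 1.08 and 1.68.

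**Figure D2:**
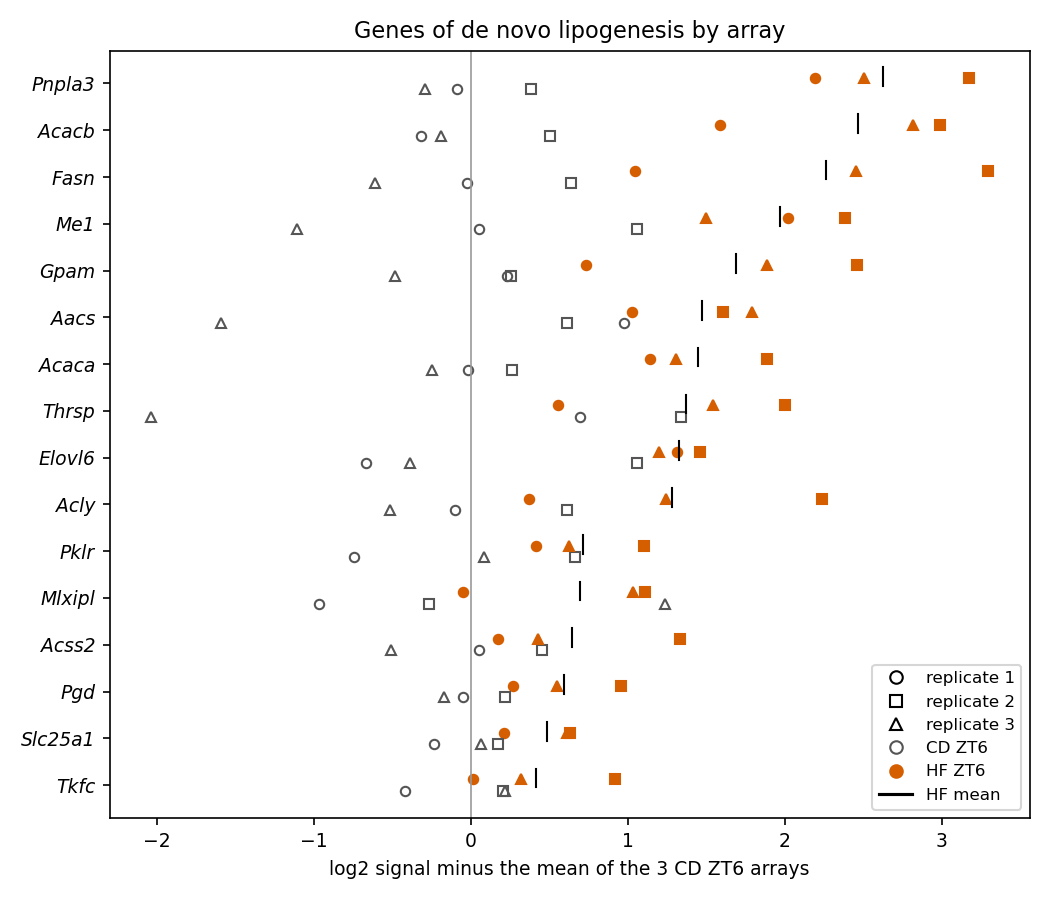
Log2 signal of 16 genes of de novo lipogenesis on the CD ZT6 arrays (open grey) and HF ZT6 arrays (orange), each minus the gene's CD mean; shape gives the replicate and the bar the HF mean. All HF means lie above 0, from 0.42 for Tkfc to 2.62 for Pnpla3, and for most genes HF replicate 1 (filled circle) is the lowest HF array.

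Fads2, Fads1 and Elovl2, which make long polyunsaturated chains, each had a cluster that rose. Fads2, the delta-6 desaturase, has 2 clusters on the array. The first gave 16.77, 17.66 and 16.64 in CD and 18.70, 18.99 and 19.05 in HF livers and rose by 1.89 ± 0.23 (adjusted p 0.00905). The second, brighter by mean, differed by 1.81 ± 0.34 and did not pass (adjusted p 0.093), so the probe sets match in size and differ in the call. Fads1, the delta-5 desaturase beside it on the chromosome, was at 15.94, 16.48 and 15.99 against 17.34, 17.51 and 17.45 and rose by 1.30 ± 0.20 (adjusted p 0.0413). Elovl2, which lengthens the chains made by both, was at 17.56, 18.34 and 17.59 against 18.90, 18.86 and 18.77 and rose by 1.02 ± 0.16 (adjusted p 0.0413). CD replicate 2 was the highest CD array in all 3 genes. The calls of Fads1 and Elovl2 were each lost in 5 of the 6 fits with an array left out, and that of Elovl2 under quantile normalization (adjusted p 0.0704). Elovl5 differed by 1.49 ± 0.35 (adjusted p 0.29). Elovl3, an elongase with male-biased and clock-timed expression, went the other way, from 15.50, 14.92 and 15.05 to 13.03, 14.47 and 13.45, or -1.51 ± 0.38 (adjusted p 0.37). Over 13 such genes, 2 rose by the brighter cluster of each symbol, 6 were higher and 1 lower at the unadjusted rule, and the median was 0.45.

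Storage, uptake and export of lipid were represented by Plin2, Fabp2 and Apoa4. Plin2, which coats lipid droplets, was at 13.95, 14.19 and 14.48 in CD and 14.97, 15.47 and 15.33 in HF livers and rose by 1.05 ± 0.13, 2.08-fold (adjusted p 0.0107, and 0.0743 without HF replicate 3). Over 20 genes of droplets and lipolysis, 2 rose, 7 were higher at the unadjusted rule and none lower, and the median was 0.41 (0.27 without CD replicate 1). Cidec, which fuses droplets, was at 5.24, 5.32 and 5.46 in CD livers and 5.64, 7.81 and 7.29 in HF livers. HF replicate 1 lay close to the CD livers and the other HF livers 2 units above, so the difference was 1.58 ± 0.58 (adjusted p 0.68). Cd36, which takes up fatty acids at the cell surface, had 9.45, 9.78 and 8.68 against 10.73, 11.67 and 11.85, or 2.12 ± 0.52 (adjusted p 0.34). Fabp2, a fatty acid binding protein best known from intestine, gave 13.78, 14.14 and 13.19 against 15.45, 15.89 and 15.91 and rose by 2.05 ± 0.25, 4.14-fold (adjusted p 0.00905). Of 17 genes of uptake and activation 1 rose and 4 were higher at the unadjusted rule, with a median of 0.17.

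Apoa4, an apolipoprotein of triglyceride-rich particles, was at 14.30, 16.18 and 14.22 in CD and 17.89, 17.45 and 17.79 in HF livers. CD replicate 2 stood almost 2 units above the other CD livers and still below every HF liver. The rise of 2.81 ± 0.38, 7.0-fold, had an adjusted p of 0.0145, and 0.0897 without CD replicate 1. Of 18 genes of triglyceride synthesis and lipoproteins, 1 rose, 6 were higher at the unadjusted rule and none lower, with a median of 0.27. Lpin1, a phosphatidate phosphatase, differed by 2.15 ± 0.52 (adjusted p 0.32) and Gpam, the mitochondrial acyltransferase of the first step, by 1.69 ± 0.44 (adjusted p 0.39). Cholesterol synthesis was without a common shift, with 9 of 17 genes above 0, a median of 0.01 and none past the test. Its median was -0.50 between HF replicate 1 and CD replicates 1 and 2 and 0.58 between HF replicates 2 and 3 and CD replicate 3. The transporters Abcg5 and Abcg8, which send cholesterol into bile, differed by 0.88 ± 0.23 and 0.91 ± 0.32 without passing. They belong to 16 sterol and bile transporters with a median of 0.14, of which 4 were higher and 1 lower at the unadjusted rule, and 12 genes of sterol sensing and LDL uptake had a median of 0.23.

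Cyp17a1, the 17-alpha-hydroxylase of steroid synthesis, had the second largest fold. Its signal was 7.96, 10.31 and 7.19 in CD and 12.58, 12.41 and 12.65 in HF livers, even across HF animals and spread over 3 units across CD animals. It rose by 4.06 ± 0.59, 16.7-fold (adjusted p 0.0243). The p was 0.161 without HF replicate 3, and the call was lost when any of 5 arrays was left out. The other steroid enzymes lay the other way: of 14 measured 1 rose, 5 were lower at the unadjusted rule and 4 were above 0, with a median of -0.49 (-0.23 without CD replicate 1). Hsd17b2, which inactivates sex steroids, differed by -0.77 ± 0.19 and Hsd3b3 by -0.62 ± 0.16, neither past the test. Of 14 male-biased liver genes 12 were below 0, with a median of -0.52 and none past the test, and the median was -0.26 with the negative-control signal in the model. Selenbp2, a selenium-binding protein, had the largest difference, from 16.27, 15.77 and 15.94 to 13.73, 13.67 and 13.80, or -2.26 ± 0.42 (adjusted p 0.093), and its near-copy Selenbp1 -1.73 ± 0.32. The 14 female-biased genes had a median of -0.01, with 3 higher and 3 lower at the unadjusted rule.

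Ces1g, a carboxylesterase that hydrolyses lipid and drug esters, was at 14.17, 13.80 and 13.99 in CD and 11.71, 12.48 and 12.27 in HF livers. The groups lay more than 1 unit apart, and Ces1g fell by 1.83 on the log2 scale (SE 0.30), 3.56-fold, with an adjusted p of 0.0484. The call was lost with any of the 6 arrays left out (adjusted p 0.0874 to 0.225), and Ces2a, another carboxylesterase, differed by -1.57 ± 0.27 (adjusted p 0.0725). Aox3, the main aldehyde oxidase of mouse liver, went from 17.29, 16.77 and 16.46 to 15.31, 15.27 and 15.34. It fell by 1.53 (SE 0.22; adjusted p 0.0228), with HF values within 0.1 of each other, and the call was lost in 5 of 6 fits with an array left out, under quantile normalization (0.056) and with the negative-control signal in the model (0.0666). A cluster without a symbol, TC0100000429, went from 15.08, 14.71 and 14.66 to 12.94, 13.00 and 13.11 and fell by 1.80 (SE 0.25, adjusted p 0.0171). Its id is next to that of Aox3, TC0100000428, so both may read the same locus, which was not tested. Ddc, the decarboxylase that makes dopamine and serotonin, went from 9.96, 9.55 and 9.23 to 7.80, 8.04 and 8.36 and fell by 1.51 (SE 0.24; adjusted p 0.0425), a call lost in 5 of those fits, with quantile normalization (0.06), and with the negative-control signal (0.127). Of 18 aldehyde enzymes and carboxylesterases 1 rose and 2 fell, 5 were lower at the unadjusted rule, and the median was -0.28 (-0.13 without HF replicate 1 and -0.15 without CD replicate 1). Gm9097, a predicted gene, went from 5.49, 5.41 and 5.19 to 4.88, 4.80 and 4.82 and fell by 0.53 (SE 0.07, adjusted p 0.0183). On HF replicates 2 and 3 it lay below the negative-control median of the array.

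No drug-metabolising enzyme of the Cyp families passed the test. Of 18 Cyp2 and Cyp3a genes with Cyp1a2, 8 were lower and 1 higher at the unadjusted rule, 2 were above 0 and the median was -0.38. Cyp2c55 was nearest, from 8.33, 8.34 and 6.99 to 6.06, 5.93 and 6.02, or -1.88 ± 0.31 (adjusted p 0.0537). Cyp1a2, which metabolises caffeine and aromatic amines, went from 19.23, 19.12 and 19.25 to 17.78, 18.23 and 17.57, or -1.34 ± 0.30 (adjusted p 0.25). Such signals lie close to the ceiling, so the true difference may be larger. Cyp3a11 differed by -1.08 ± 0.33 (adjusted p 0.54). Of 20 conjugation enzymes 17 were below 0 and 5 lower at the unadjusted rule, with a median of -0.34. Gsta2, a glutathione transferase, differed by -1.75 ± 0.39 with 9.40, 9.61 and 9.22 against 7.81, 7.63 and 7.56 (adjusted p 0.23). Members of these families resemble each other in sequence, which the probes may not fully resolve.

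Bile acid genes divided. Cyp7b1, of the alternative pathway and male-biased, differed by -1.96 ± 0.62 with groups apart (14.79, 14.12 and 14.79 against 12.78, 12.67 and 12.37; adjusted p 0.55), and over 15 genes the median was -0.15 with 1 higher and 3 lower at the unadjusted rule. In the methionine and taurine list, Cth, which makes cysteine, went from 14.96, 15.05 and 15.28 to 13.34, 13.83 and 13.96, or -1.39 ± 0.26 (adjusted p 0.093), and 2 of its 18 genes were higher and 4 lower at the unadjusted rule, with a median of -0.06. Genes of NAD+ synthesis and salvage had a median of -0.04 over 17 genes, 1 higher and 4 lower at the unadjusted rule, none past the test. Nmrk1, the nicotinamide riboside kinase, differed by 0.72 ± 0.14 (adjusted p 0.10). Nnmt, which methylates nicotinamide, went from 6.73, 6.78 and 7.39 to 5.37, 6.44 and 6.48, or -0.87 ± 0.32 (adjusted p 0.69). Glycolysis, gluconeogenesis and glycogen had medians of 0.15, 0.21 and 0.18 over 15 genes each, and Fgf21, listed with the fasting genes, was the 1 member past the test.

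**Figure D3:**
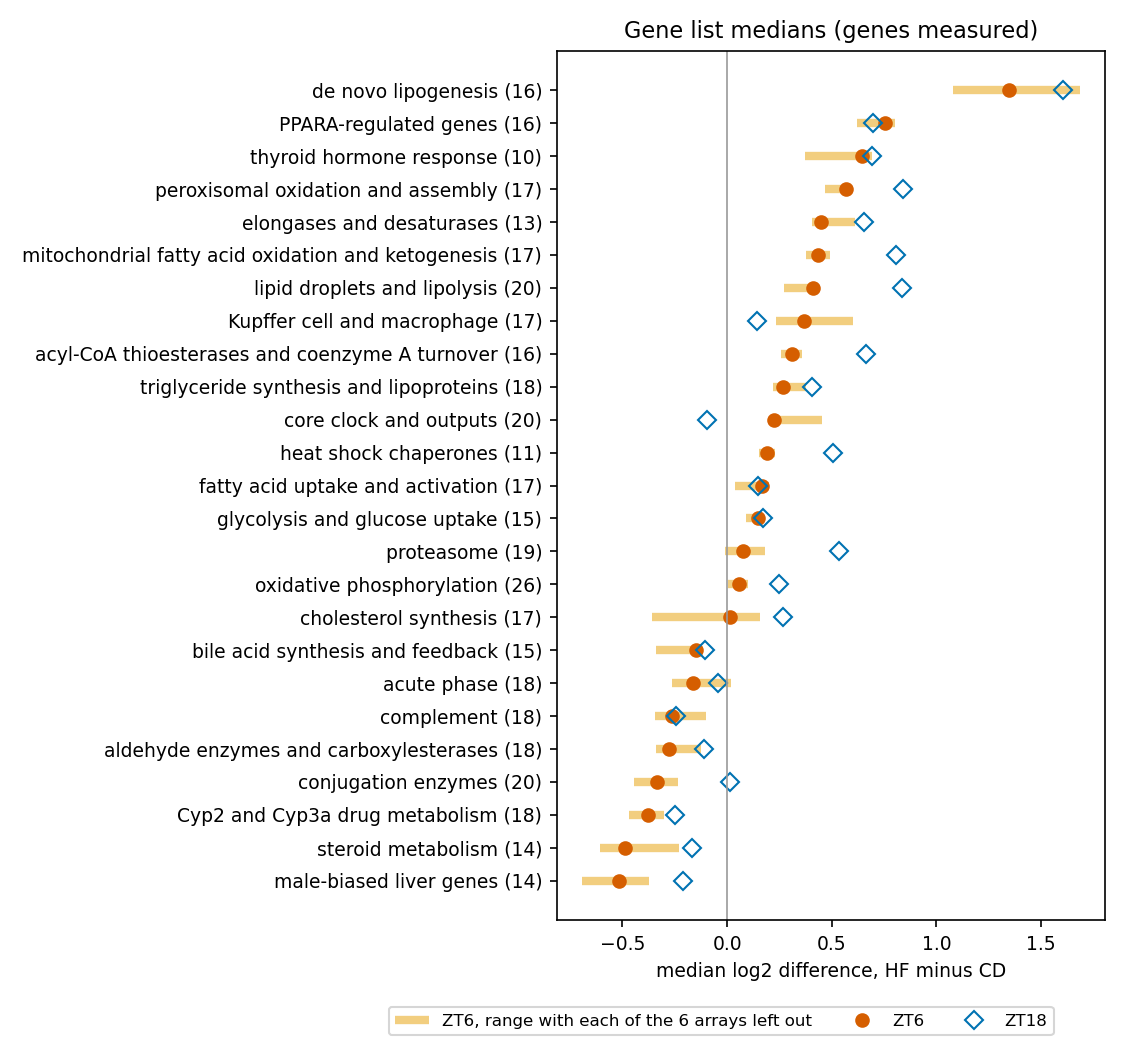
Median log2 difference, HF minus CD, of 25 gene lists at ZT6 (orange) and ZT18 (open blue), with the ZT6 range when each of the 6 arrays is left out (yellow); the number of genes measured stands after each name. De novo lipogenesis is highest at ZT6 (1.35) and stands at 1.60 at ZT18, and the male-biased genes stand at -0.52 at ZT6, -0.26 with the negative-control signal in the model.

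No clock gene passed the test at ZT6. Of 20 clock genes and clock outputs, 8 were higher and 1 lower at the unadjusted rule, and the median was 0.23, 0.46 without CD replicate 3 and 0.10 with the negative-control signal in the model. Per2, a repressor of the clock loop, was at 6.29, 6.81 and 7.53 in CD and 7.21, 7.96 and 8.01 in HF livers, overlapping groups with a difference of 0.85 ± 0.30 (adjusted p 0.66). Dbp, a transcription factor the clock drives directly, was at 9.70, 10.61 and 10.61 against 10.97, 11.39 and 11.12, or 0.85 ± 0.26 (adjusted p 0.53). Clock, which activates the loop together with Arntl, was at 12.18, 11.96 and 11.72 against 11.62, 10.95 and 11.27, or -0.67 ± 0.16 (adjusted p 0.29). Per1, Per3, Ciart, Usp2 and Tef were higher at the unadjusted rule by 0.39 to 0.83. At ZT18, in other mice, Per1, Per2, Per3, Dbp, Tef, Usp2 and Ciart were lower in HF livers by 0.12 to 0.77 and Clock higher by 0.24, none of them past the test. Npas2, a relative of Clock, rose there by 1.26 (adjusted p 0.026) and differed by -0.14 at ZT6. The difference between the times was 1.38 for Per2 and 1.27 for Dbp and passed for no clock gene (lowest adjusted p 0.43). In Per1, Per2, Per3 and Tef CD replicate 3, one of the arrays with a high negative-control signal, was the highest CD array. With that signal in the model the ZT6 differences of Per1, Per2, Per3, Tef and Dbp were 0.17, 0.46, 0.47, 0.15 and 0.61. At ZT18 the negative-control medians were 4.67, 4.91 and 4.91 on the CD arrays and 4.62, 4.63 and 4.69 on the HF arrays. The CD arrays thus mostly stood higher at ZT18, unlike at ZT6. The part of this signal in the change of sign was not tested. Rgs16, a regulator of G protein signalling with a strong daily rhythm, had the largest difference of the list, from 11.13, 10.35 and 11.88 to 14.19, 15.93 and 15.08, or 3.95 ± 0.75 (adjusted p 0.0999), and it rose by 4.13 at ZT18 (adjusted p 0.0217).

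**Figure D4:**
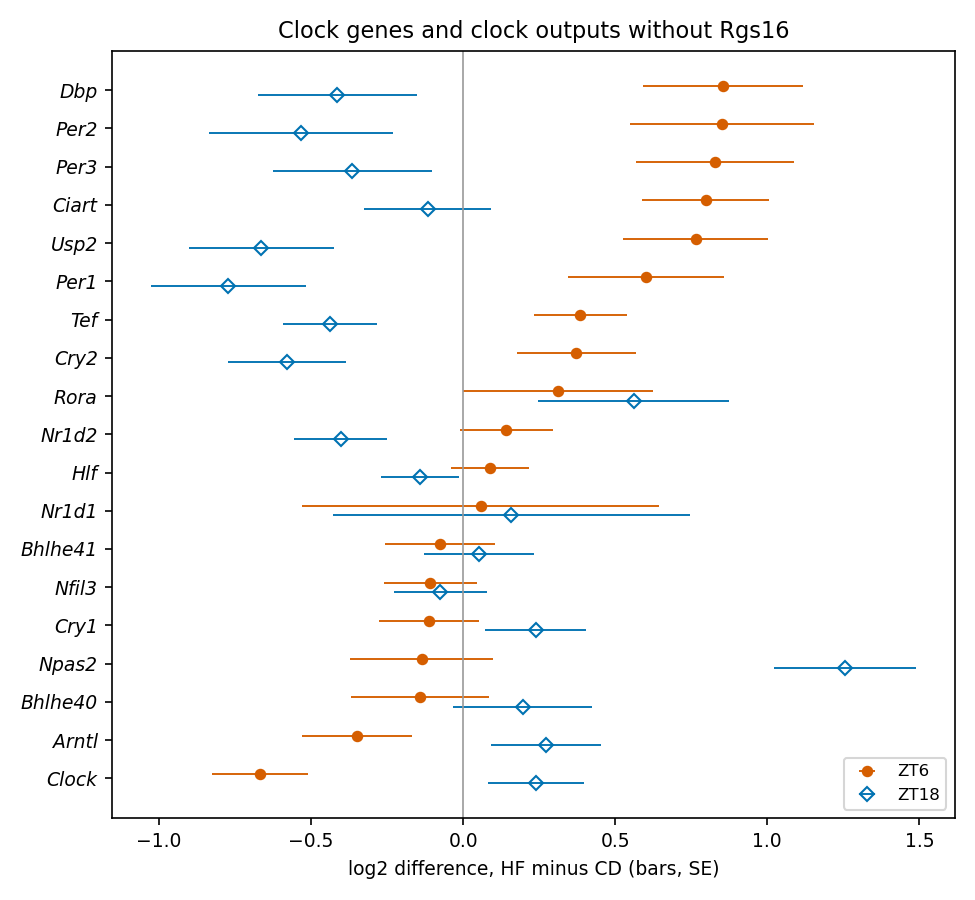
Log2 difference between HF and CD livers (bars, SE) for 19 clock genes and outputs, without Rgs16, at ZT6 (orange) and ZT18 (open blue). Dbp, Per2, Per3, Ciart, Usp2 and Per1 lie above 0 at ZT6 (0.60 to 0.85) and below 0 at ZT18, and Clock the other way (-0.67 and 0.24). Negative-control signal was mostly higher on the HF arrays at ZT6 and on the CD arrays at ZT18.

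Of the Kupffer cell and macrophage markers all 17 genes measured were above 0, 7 were higher at the unadjusted rule and none passed the test, with a median of 0.37, which was 0.23 without HF replicate 1 and 0.60 without CD replicate 2. The 13 members among the brighter clusters had a median of 0.56. Clec4f, a lectin found on Kupffer cells, was at 9.69, 9.62 and 9.29 in CD and 10.57, 9.93 and 10.17 in HF livers, or 0.69 ± 0.21 (adjusted p 0.53). Cd68, a lysosomal protein of macrophages, was at 7.18, 7.71 and 7.17 against 8.29, 8.21 and 8.42, or 0.95 ± 0.37 (adjusted p 0.73). In both the groups did not overlap. The summed linear signal of the 17 genes ran from 4950 to 8697 in CD and from 8304 to 13388 in HF livers. More cells of a type and more RNA per cell cannot be told apart in bulk tissue. Trem2 and Gpnmb, markers of macrophages in advanced fatty liver, differed by 0.10 and 0.01. Csf1r, the receptor these cells need, differed by 0.70 ± 0.21, and Axl, a receptor for dying cells outside the list, by 0.74 ± 0.14 (adjusted p 0.12).

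For other cell types the marker medians were 0.06 for stellate cells and fibroblasts (13 genes), 0.12 for endothelial cells (12), 0.04 for cholangiocytes (5), for T, NK and B cells (12) and for neutrophils (10), and 0.02 for adipocytes (8) and pancreas acinar cells (7), with no more than 1 gene of each at the unadjusted rule. For adipocytes that gene was Cidec, which fat-laden hepatocytes also make. Most markers of adipocytes, neutrophils and T, NK and B cells were among the dimmer clusters, close to background, and their brighter members had medians of 0.36 (3 genes), 0.17 (4) and 0.24 (4). Alas2, of red cells, differed by -0.65 ± 0.19 (adjusted p 0.49). The 3 hepatocyte markers that varied between arrays, Fgb, Cps1 and Hpx, all near the ceiling, had a median of -0.11 and the nuclear noncoding RNAs (5) 0.18. Of 18 complement genes 4 were higher and 5 lower at the unadjusted rule, with a median of -0.26 (-0.10 without HF replicate 2 and -0.16 without CD replicate 1). The higher ones were C1qa, C1qb and C1qc, made by macrophages, at 0.45, 1.61 and 0.58, and Mbl2, a lectin made by hepatocytes, at 0.59. The lower ones were C8a, C8b, C9, C2 and C1s1, made by hepatocytes, at -0.97, -1.57, -1.19, -0.76 and -0.48. The lowest adjusted p of the list was 0.11, for C2 (10.03, 9.82 and 10.02 against 9.34, 9.01 and 9.27). The Kupffer list moved with the C1q genes, and its part in them was not tested. Acute-phase genes had a median of -0.16 over 18 (0.02 without HF replicate 2), with 4 lower at the unadjusted rule, among them Orm1 at -0.56 ± 0.16.

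Receptors of cytokines and the IL6 path had a median of 0.15 over 27 genes, 5 higher at the unadjusted rule. Lepr, the leptin receptor, was at 5.38, 5.44 and 5.46 in CD livers and 8.66, 5.92 and 6.30 in HF livers, where HF replicate 1 alone stood far above the rest (adjusted p 0.54). Interferon-stimulated genes had a median of 0.18 (3 of 18 higher at the unadjusted rule) and antigen presentation 0.21 (14 of 14 above 0, 1 higher). TGF-beta, NF-kB, autophagy and the cell cycle had medians of 0.11, 0.08, 0.07 and 0.04 with 1, 1, 1 and 0 genes higher. Heat shock chaperones, the proteasome and ribosomal proteins had medians of 0.19 (11 genes), 0.08 (19) and -0.13 (7), and none of their genes met the unadjusted rule. For the unfolded protein response the median was -0.20 (18 genes, 1 lower), and for urea cycle and amino acid breakdown also -0.20 (14 genes, 1 lower). Genes that respond to thyroid hormone had 0.64 over 10 (0.37 without CD replicate 3), and the 5 that were higher include Thrsp and Me1 of lipogenesis. Antioxidant genes, insulin signalling, secreted factors, metal transport and hepatocyte factors had medians between -0.002 and 0.18.

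Among the remaining calls, Slc23a2, a vitamin C transporter, was at 6.94, 6.90 and 7.24 in CD and 7.85, 7.59 and 7.94 in HF livers and rose by 0.76 ± 0.11 (adjusted p 0.0274). Neurl2, of the Neuralized family, rose by 0.68 ± 0.10 (adjusted p 0.0315) and Ralgps2, an exchange factor for Ral, by 0.63 ± 0.08 (adjusted p 0.0119). All 3 had groups apart. Neurl2 was dim, at 4.46, 4.71 and 4.39 in CD and 5.03, 5.24 and 5.34 in HF livers. On CD replicates 1 and 3 it lay below the negative-control median of the array. The cluster TC0900002219, with no symbol here, went from 6.11, 7.02 and 5.94 to 9.29, 9.04 and 9.44 and rose by 2.90 ± 0.27 (adjusted p 0.00219). It had the lowest adjusted p of the comparison. Besides it and TC0100000429, the changed clusters without a symbol were TC1800000231, TC0400003838, TC0400001040 and TC1400002066. TC1800000231 went from 5.69, 5.99 and 6.78 to 7.91, 8.20 and 8.83 and rose by 2.16 ± 0.28 (adjusted p 0.0107). TC0400003838 rose by 1.16 ± 0.19 (adjusted p 0.0473) and the dim TC0400001040 by 0.95 ± 0.13 (adjusted p 0.0167). TC1400002066 fell, with a difference of -0.76 (SE 0.10, adjusted p 0.0119).

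The same diets were compared at ZT18 in 6 other mice, with which only the estimate of spread is shared. There 400 clusters changed, 0.606% of those tested. Of the 29 clusters changed at ZT6, 18 also changed in the same direction at ZT18, which is 62.1% of the ZT6 calls and 4.5% of the ZT18 calls. These 18 comprise 16 rises and 2 falls, and the falls are Aox3 and the cluster with the next id, TC0100000429. In 24 of the 29 the ZT18 groups were also apart in that direction, against 15.8% of all clusters apart in either direction at ZT18. Vnn1 rose by 4.36 ± 0.40 at ZT18 and by 3.33 at ZT6, Pnpla3 by 3.82 ± 0.28 and 2.62, Fabp2 by 3.45 ± 0.25 and 2.05, and Cyp17a1 by 5.35 ± 0.59 and 4.06. Cyp4a14 had 5.62 ± 0.85 at ZT18 and 6.62 at ZT6. Aox3 fell by 1.88 at ZT18 and by 1.53 at ZT6, while Ces1g (-1.18 ± 0.30, adjusted p 0.0934) and Ddc (-0.86 ± 0.24, adjusted p 0.136) did not pass at ZT18. Slc23a2 and Neurl2 differed by 0.27 and 0.16 there, and Gm9097 by 0.13 against -0.53 at ZT6. Of the calls without a symbol, TC0900002219 rose by 4.96 ± 0.27 at ZT18. TC1800000231, TC0400003838, TC0400001040 and TC1400002066 differed there by 0.16, 0.31, 0.08 and 0.03, none past the test. The change of the diet difference between the times passed for no cluster (limma, lowest adjusted p 0.251), with 5330 at the unadjusted rule, 12 of them among the 29. Without HF ZT6 replicate 1 it passed for 9.

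**Figure D5:**
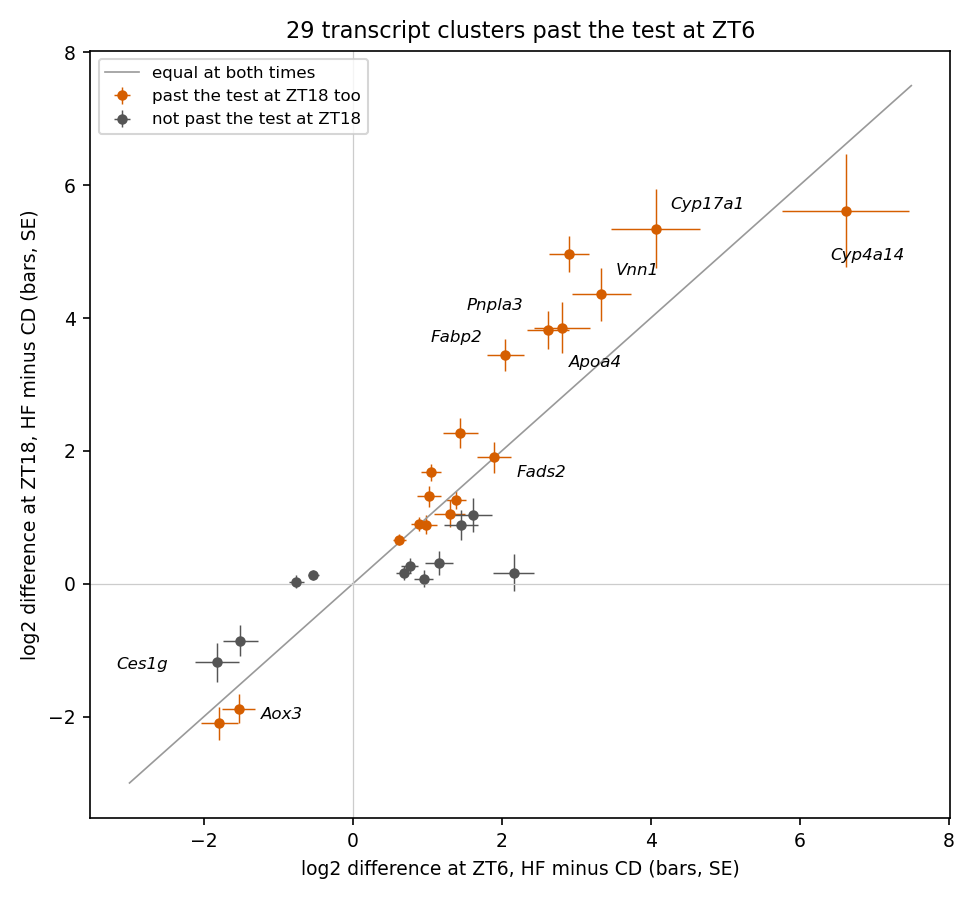
Log2 difference between HF and CD livers at ZT18 against that at ZT6 for the 29 clusters changed at ZT6, with SE bars; orange marks the 18 past the test at ZT18 too and the line equal differences. Cyp17a1, Vnn1, Apoa4, Pnpla3, Fabp2 and the unnamed TC0900002219 lie above the line and Cyp4a14 below it. Several changes lie near 0 at ZT18, small ones and also TC1800000231, with 2.16 at ZT6 and 0.16 at ZT18. Apoa4 may be at the limit of its probes in HF livers at ZT18, which was not tested.

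In the livers of HFN mice at ZT6, which are set against the same 3 CD arrays, Cyp4a14 was at 16.52, 17.54 and 17.93, Vnn1 at 11.24, 12.48 and 12.21 and Apoa4 at 18.09, 18.12 and 18.09. Their differences from CD were 6.44, 2.91 and 3.20, beside 6.62, 3.33 and 2.81 for HF. Apoa4 read 18.125, 18.106 and 18.125 in HF livers at ZT18, nearly the same level as in HFN livers. That level may be the limit of its probes, so the Apoa4 differences may be too small, which was not tested. Aldh3a2 differed by 1.60 in HFN and 1.39 in HF livers, and Aox3 by -1.73 and -1.53. For Slc23a2 the HFN arrays read 7.31, 7.15 and 7.05, a difference of 0.14 beside 0.76 in HF livers, and for Ralgps2 0.30 beside 0.63. Over the lists, de novo lipogenesis had a median of 1.40 in HFN and 1.35 in HF livers, peroxisomal genes 0.59 and 0.57, and the Kupffer list 0.04 and 0.37. Because both share the CD arrays, these values are given side by side, and the difference between HF and HFN livers was not tested here.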

How the data were processed

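The deposited log2 values came from the authors, who processed Clariom D arrays with the Transcriptome Analysis Console under default parameters; how probes were summarized, and the genome build: not given in the sources used here. From 72688 deposited entries, 6732 control probe sets were dropped. Symbols came from GEO's platform table, with 984 updated through RefSeq: 31292 clusters have 1 symbol, 1522 several and 33142 none here. Where a symbol has several clusters (439 symbols), the one with the highest mean was read. No further normalization was applied. The model was fitted with limma 3.58.1 in R 4.3.3 (12 residual degrees of freedom, 2.27 added by the prior) and tested on simulated data. Gene lists (58, with 815 of 947 genes measured and 17 of these changed) and members were chosen with earlier results of these data known, so they are descriptions and were not tested as sets. Named genes are the 20 largest rises and falls past the test and, per list, up to 4 past it or the 2 with the lowest p; Abcd2, Cidec, Lepr and the other unpassed members named beyond these were picked after their values were seen. The number of arrays limits the precision. With 1 array for each mouse, p-values weigh group differences against a spread that mixes mice and arrays. Alternatives were other thresholds, a fit on the compared groups, replicate numbers as a block, the brighter clusters alone, quantile normalization, a robust prior with an intensity trend, the negative-control signal in the model and leaving out each array.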

Additional observations from a re-analysis of the deposited data

How the results depend on the processing

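Of 29 changed clusters at ZT6 (23 higher, 6 lower), no direction was reversed under any alternative run. At an unadjusted p under 0.05, 2216 were changed (1217 higher, 999 lower), 5847 at ZT18, 413 at both and 5330 between the times. A fit on the compared groups alone, with fewer samples, gave 0 at ZT6 (0 higher, 0 lower, 0 shared) and 46 at ZT18; its unadjusted count at ZT6 was 2638. With the replicate number as a block, 49 clusters changed (40 higher). Of the 29 calls 28 remained, and 29 clusters were shared with ZT18. Same-numbered arrays correlated at 0.328, -0.228 and 0.366 in their deviations, and HF replicate 1 correlated best with CD replicate 2. The signs went with the negative-control signal, high on CD replicate 3 and HF replicates 2 and 3. These correlations do not show whether the numbers pair mice. Among the brighter clusters 10 fell and 622 changed at ZT18, and with the negative-control covariate 11 fell and 138 changed at ZT18. The cause was not tested. Leaving out 1 array gave 6 to 48 changed clusters at ZT6 (5 to 44 higher, 0 to 10 lower), 319 to 537 at ZT18, 0 to 9 between the times and 4 to 21 shared. Of the 29 calls, 24 remained with quantile normalization and 25 with the trend. Of 58 list medians, the brighter clusters moved 4 by more than the spread between replicates, the covariate 3 and quantile normalization 1. Of the list medians further than 0.15 from 0, those of uptake, bile acid synthesis, gluconeogenesis, glycogen, interferon, sterol sensing, hepatocyte factors, blood, nuclear RNA, the unfolded protein response and the urea cycle also moved by over 1.5 times with 1 array left out. Dim transcripts near the negative-control signal and bright ones at the ceiling limit what can be seen.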

Other observations

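Clusters of some noncoding RNA classes were more often lower than higher in HF livers at ZT6. Of 928 clusters annotated as snRNA, 113 were lower and 7 higher by the unadjusted rule of the report, with a median difference of -0.182 against 0.009 for all clusters. Of 959 snoRNA clusters 43 were lower and 2 higher, with a median of -0.113, and of 4456 pseudogenes 147 were lower and 41 higher. Of 994 miRNA clusters 17 were lower and 13 higher, with a median of 0.008. Protein-coding clusters went the other way, with 526 higher and 226 lower of 19546. With negative-control signal added to the model the medians were -0.084 for snRNA and -0.023 for snoRNA. At ZT18, without that signal in the model, they were 0.042 and 0.044. There the CD arrays mostly had the higher negative-control medians (4.67, 4.91 and 4.91 against 4.62, 4.63 and 4.69 on HF arrays). The part of that signal in the change of sign was not tested. Many snRNA clusters are near-copies of each other, so they are not independent.

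Neat1, a long noncoding RNA kept in the nucleus, was at 8.30, 7.44 and 11.64 in CD and 7.67, 11.09 and 12.96 in HF livers at ZT6. It was high on the 3 arrays with the highest negative-control signal and low on the other 3, and the groups overlapped. Malat1, another nuclear RNA, was at 17.17, 16.64 and 17.77 against 16.55, 17.36 and 17.60.

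Named clusters that missed the test include Nceh1, which hydrolyses cholesterol esters, at 6.86, 6.85 and 6.94 in CD and 7.81, 7.41 and 7.72 in HF livers (0.77 ± 0.13, adjusted p 0.0537). St3gal5, which makes the ganglioside GM3, was at 10.50, 11.27 and 11.38 against 12.22, 12.32 and 12.44 (1.28 ± 0.23, adjusted p 0.093). Clec7a, a receptor of myeloid cells, was at 6.27, 5.58 and 5.47 against 7.15, 6.84 and 6.76 (1.14 ± 0.22, adjusted p 0.11). These were named after their values were seen.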
